A study of Homo sapiens with 24 samples.

Results

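The Iroquois homeobox genes IRX1 to IRX6 were followed through 24 bulk RNA sequencing libraries of heart muscle cultures grown from human embryonic stem cells. The 6 members were found by matching Ensembl identifiers to gene symbols. They are 6 of the 62757 rows of the count table, and all 6 were among the 17724 genes with enough counts to be tested. The cells were of the HES3 line with a GFP reporter at NKX2-5 and an mCherry reporter at NR2F2, and they were cultured as embryoid bodies for at most 14 days under Wnt modulation. CRISPR-Cas9 had been aimed at LHX2, ZNF503 or ZNF711, or at TRAC as the control target, so the controls also carried both reporters and a targeted gene. Whether a target was 1 clone or a pool of cells is not said in the labels. The labels divide each of the 4 targets into AM and VM libraries. AM is taken to mean the atrial protocol, with retinoic acid at day 4, and VM the ventricular protocol without it. That gave 8 groups of 3 libraries: AM TRAC, AM LHX2, AM ZNF503, AM ZNF711, VM TRAC, VM LHX2, VM ZNF503 and VM ZNF711.

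Libraries held 2899786 to 7438010 counts. The limit that a count of 0 allows, 3 counts, equalled 0.403 to 1.03 per 1000000 unscaled counts of the library. CPM (counts per 1000000) below use library sizes scaled by TMM, so that limit is on a slightly different scale. Neither LHX2, ZNF503 nor ZNF711 RNA was called by edgeR against TRAC in either protocol (adjusted p 0.295 or higher). LHX2 had 0 to 34 counts in every library. ZNF503 was higher in the libraries labelled ZNF503, with 255 to 367 CPM against 103 to 123 in AM and 19.1 to 45.3 against 8.82 to 16.2 in VM, so that name stands for a label below. ZNF711 had 25.9 to 33.9 CPM in VM ZNF711 against 34.6 to 48.0 in VM TRAC. In AM it overlapped, with 31.2 to 55.8 CPM in AM ZNF711 against 47.4 to 60.3 in AM TRAC. The labelled cell type was cardiomyocyte, and the 10 cardiomyocyte genes listed summed to 11119.9 to 41470.2 CPM, with none of them at 0 in every library. The labels do not say that libraries of a group came from separate cultures, so p-values measure only the spread between these libraries, which may be technical.

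Iroquois proteins are transcription factors of the TALE homeodomain class that also carry a conserved Iro box. Their genes lie in a pair of clusters that arose by duplication, IRXA with IRX1, IRX2 and IRX4 and IRXB with IRX3, IRX5 and IRX6, and long-range enhancers can act on several genes of a cluster. In the vertebrate heart IRX4 marks the ventricular muscle and holds atrial genes down there, IRX3 is known from the ventricular conduction system, and IRX5 from the gradient of repolarisation across the ventricular wall.

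On GRCh38, with GENCODE 29 positions, the IRXA genes lie at chr5:1877413-1887236 on the minus strand (IRX4), chr5:2745845-2751662 on the minus strand (IRX2) and chr5:3596054-3601403 on the plus strand (IRX1). The IRXB genes lie at chr16:54283304-54286763 on the minus strand (IRX3), chr16:54930862-54934485 on the plus strand (IRX5) and chr16:55323760-55330760 on the plus strand (IRX6). Starts of neighbours are 864 kb apart for IRX4 and IRX2, 844 kb for IRX2 and IRX1, 644 kb for IRX3 and IRX5, and 393 kb for IRX5 and IRX6. IRX4-AS1 is annotated on the opposite strand inside IRX4, at chr5:1883966-1884649. CRNDE, a long noncoding RNA, starts 1673 bases from IRX5 on the other strand, and IRX2-DT starts 469 bases from IRX2, also on the other strand, by GENCODE 29.

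Promoter sequence was found in the RefSeq table (GRCh38.p14) for 3 of the 6 members, IRX1, IRX2 and IRX4. The stretches below are shown because IRX4 carries the largest difference between the protocols, and because IRX2 shares its start region with a divergent RNA that can be read beside it. They lie at chr5:1887237-1887429, chr5:1882926-1883175 and chr5:2751678-2751892, and each is written 5′ to 3′ on the minus strand. The first ends at the outer start of IRX4 by GENCODE 29, and the RefSeq start of its window (chr5:1887130-1887429) lies farther inside the gene. The second ends at an inner RefSeq start within the gene. Another RefSeq window of IRX4, at chr5:1886896-1887195, is not printed. The last is the stretch between the RefSeq starts of IRX2 and IRX2-DT, which are closer together than the GENCODE 29 starts given above.
IRX4 outer start: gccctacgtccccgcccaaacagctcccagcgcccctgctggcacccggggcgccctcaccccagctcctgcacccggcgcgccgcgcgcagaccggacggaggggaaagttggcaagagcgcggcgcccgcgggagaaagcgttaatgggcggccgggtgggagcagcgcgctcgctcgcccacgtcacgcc
IRX4 inner start: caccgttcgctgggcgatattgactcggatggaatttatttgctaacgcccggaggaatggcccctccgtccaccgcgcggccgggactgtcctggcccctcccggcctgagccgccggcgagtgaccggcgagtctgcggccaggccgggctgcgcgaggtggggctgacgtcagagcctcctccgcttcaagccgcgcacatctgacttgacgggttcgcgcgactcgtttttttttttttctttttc
IRX2 and IRX2-DT, between their starts: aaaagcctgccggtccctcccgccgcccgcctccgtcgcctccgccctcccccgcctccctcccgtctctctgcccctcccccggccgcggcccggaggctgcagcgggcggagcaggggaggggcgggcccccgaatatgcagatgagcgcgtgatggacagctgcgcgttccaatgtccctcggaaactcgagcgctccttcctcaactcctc
The stretches have a GC content of 75.6%, 64.0% and 72.6%. Motifs were searched on both strands of the whole 300 base windows, and no letter is in capitals because none matched. The letters searched were AGGTCA, the core of retinoid and other nuclear receptor sites (in 13.8% of 35116 RefSeq windows of that length), the same letters repeated after 5 bases of any kind (0.006%) or after 1 (0.023%), the T-box letters AGGTGTGA (0.98%), the GATA letters AGATAA (10.3%) and the NKX letters TNAAGTG (10.2%). Any window with a repeat also holds AGGTCA. The windows of IRX1, IRX2, IRX4, IRX4-AS1 and IRX2-DT held 0 matches, which says only that these letters are not in these windows.

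Between the protocols the members did not all go one way. IRX4 was 63.1-fold lower in AM, IRX3, IRX2 and IRX1 were lower by a smaller step (1.67-fold, 1.39-fold and 1.63-fold), IRX5 was 2.17-fold higher, and IRX6 was near the limit of counting in both. Of the 6 members, 5 were called in AM against VM averaged over the 4 targets by edgeR, which called 34.5% of all genes. Of these, 1 was higher in AM, in a comparison where 16.8% of genes were called higher, and 4 were lower, where 17.6% were. With scaling to library size alone the split of all calls was 3797 higher and 2496 lower, against 2979 and 3128 as reported, and the 5 members kept their directions. The median log2 change of the 6 was −0.59, beside −0.01 over all genes tested.

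**Figure D1:**
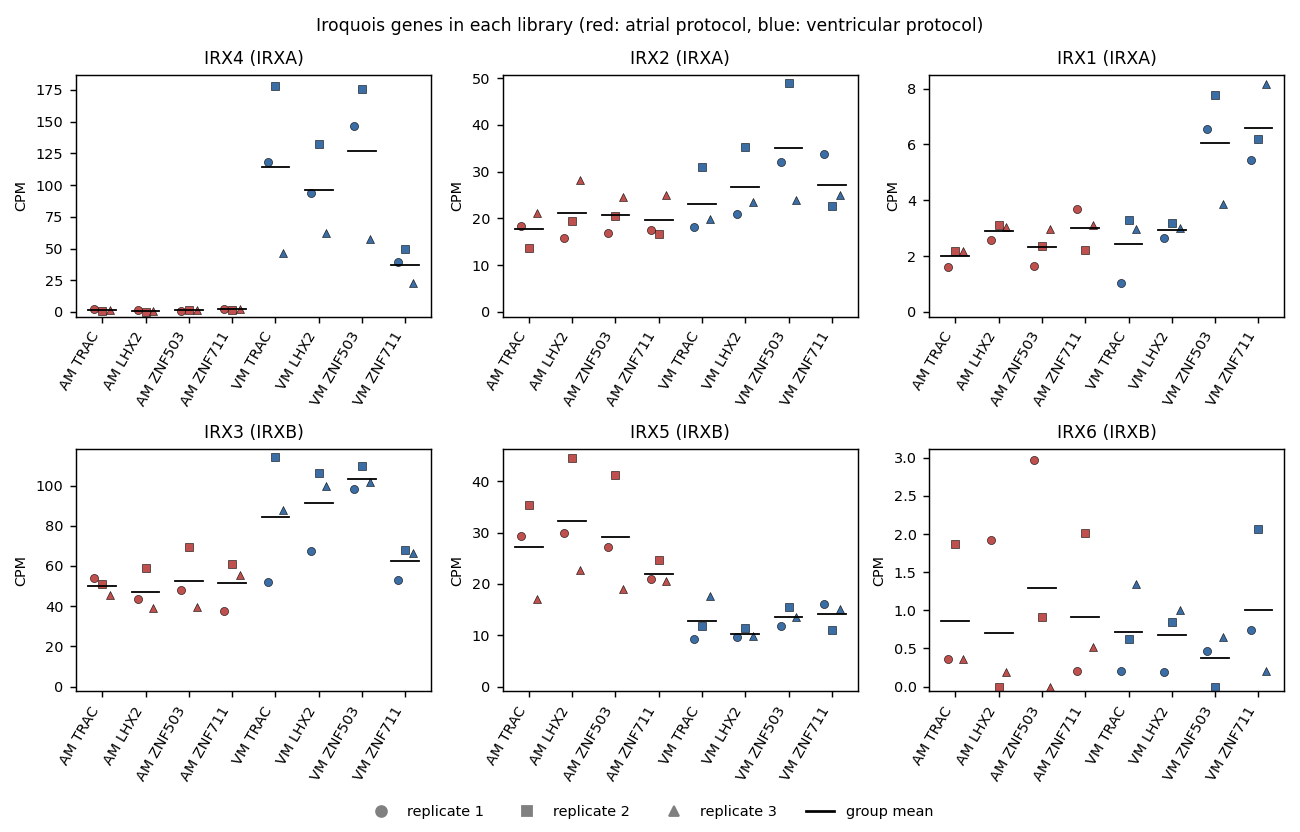
CPM of each Iroquois gene (vertical axes, each with its own scale) in the 24 libraries by group, with symbols for the replicate number and a line at the group mean. IRX4 lies between 0.259 and 2.66 CPM in the 12 AM libraries (red) and between 22.8 and 178 in the 12 VM libraries (blue), while IRX5 is higher in AM.

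IRX4, the ventricular member, separated the protocols without overlap. Its counts were 13, 5 and 8 in AM TRAC, 13, 6 and 10 in AM ZNF711, 5, 1 and 2 in AM LHX2 and 5, 9 and 10 in AM ZNF503, a sum of 87 over 12 libraries. In VM they were 577, 864 and 313 in VM TRAC, 158, 264 and 109 in VM ZNF711, 626, 860 and 266 in VM ZNF503 and 497, 623 and 312 in VM LHX2, a sum of 5469. Every VM library was above every AM library, and 2 AM LHX2 libraries were under the limit of 3 counts. On the CPM scale IRX4 had a lowest, median and highest level of 0.259, 1.53 and 2.66 in AM and of 22.8, 77.9 and 178 in VM. The log2 change of AM over VM was −5.98 (± 0.33 SE, edgeR adjusted p 3.92e-11), or 63.1-fold lower in AM. In bulk RNA fewer cells of a type and less RNA per cell cannot be told apart. The VM libraries also held more RNA of 10 endoderm and liver genes (1716 to 31126 summed CPM against 199.7 to 2053 in AM) and the AM libraries more of 8 fibroblast genes (4133 to 7284 against 1709 to 4919), and the part of these cells in the result was not tested. Set against the 10 cardiomyocyte genes of the same library, IRX4 had 2.05 to 4.87 CPM per 1000 CPM of those genes in VM and 0.0140 to 0.130 in AM, again with no overlap.

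IRX4-AS1, the RNA annotated on the strand opposite IRX4, was counted in 10 of the 12 VM libraries and in no AM library. It had 0 counts in all 12 AM libraries, 19, 30 and 8 in VM TRAC, 24, 18 and 8 in VM ZNF503, 10, 12 and 11 in VM LHX2, and 2, 0 and 0 in VM ZNF711. Summed counts were 142 in VM and 0 in AM, at least 45.4-fold higher in VM with the limit of 3 counts taken over the AM group. It was called lower in AM by edgeR (adjusted p 0.000101), but not without VM ZNF711 replicate 1, the only library of that group with a count (−5.24, edgeR adjusted p 0.9999). Both ZNF711 groups then held only counts of 0, which fix no change for that target. The fit of the average without that library therefore cannot decide. Whether reads were counted by strand is not given in the sources used here, so unspliced IRX4 reads and IRX4-AS1 cannot be told apart. Opposite-strand genes at IRX1, IRX3 and IRX6 had at most 1, 21 and 0 counts in a library.

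IRX2 and IRX1, the other IRXA genes, were lower in AM by far less than IRX4. IRX2, an Iroquois gene with roles in limb and neural patterning, had a lowest, median and highest level of 13.6, 18.9 and 28.3 CPM in AM and 18.3, 24.5 and 49.02 in VM. The protocols overlapped, and the log2 change was −0.48 (± 0.14 SE, edgeR adjusted p 0.0115). IRX1, which patterns lung and kidney tubule among other organs, had 1.63, 2.47 and 3.68 CPM in AM and 1.03, 3.58 and 8.15 in VM, with a log2 change of −0.70 (± 0.22 SE, edgeR adjusted p 0.0154). The high end in VM belonged to VM ZNF503 (6.57, 7.76 and 3.87 CPM) and VM ZNF711 (5.44, 6.21 and 8.15), while no library of VM TRAC (1.03, 3.30 and 2.98) or VM LHX2 (2.63, 3.19 and 3.002) was above the highest AM library. Without filtering, the edgeR adjusted p of IRX1 was 0.107, and leaving out any 1 library ended neither call. Leaving out replicate 2 of every group ended both (0.231 for IRX1 and 0.409 for IRX2), as did replicate 3 for IRX1 (0.0826) and replicate 1 for IRX2 (0.0938). IRX2-DT, which starts beside IRX2, had a log2 change of −0.31 (± 0.29 SE, edgeR adjusted p 0.448).

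IRX3 and IRX5, neighbours in IRXB that are read away from each other, went in opposite directions. IRX3 had a lowest, median and highest level of 37.8, 49.5 and 69.2 CPM in AM and 51.9, 93.1 and 114 in VM, with a log2 change of −0.74 (± 0.12 SE, edgeR adjusted p 3.71e-05). IRX5 had 17.1, 25.9 and 44.5 CPM in AM and 9.23, 11.7 and 17.6 in VM, a log2 change of 1.12 (± 0.15 SE, edgeR adjusted p 2.45e-06), or 2.17-fold higher in AM. Both overlapped between the protocols, IRX3 through VM TRAC replicate 1, VM LHX2 replicate 1 and all of VM ZNF711, and IRX5 where VM TRAC replicate 3 at 17.6 CPM lay above AM TRAC replicate 3 at 17.1. The ratio of IRX3 to IRX5 counts within a library needs no scaling, and it did not overlap. That ratio had a lowest, median and highest value of 1.33, 1.79 and 2.70 in AM and 3.31, 7.07 and 10.2 in VM. CRNDE, whose start lies next to that of IRX5, had a log2 change of 0.05 (± 0.13 SE, edgeR adjusted p 0.801), with medians of 30.5 CPM in AM and 29.9 in VM.

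IRX6 was near the limit of counting. It had 0 to 18 counts in AM and 0 to 11 in VM, and 7 AM and 5 VM libraries had fewer than 3. Its log2 change was 0.45 (± 0.63 SE, edgeR adjusted p 0.635), and it was −0.13 without AM LHX2 replicate 1, so a difference was not detectable at this depth.

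**Figure D2:**
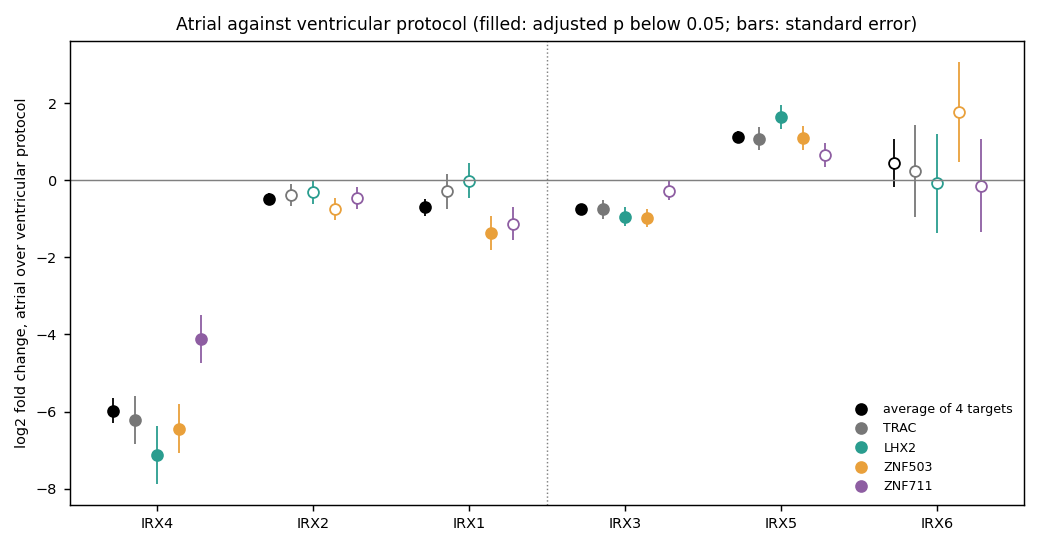
Log2 fold change of AM over VM (vertical axis) for each gene, IRXA left and IRXB right of the dotted line, averaged over the 4 targets (black) and within each target (colours), with bars of 1 standard error and filled points where the edgeR adjusted p was below 0.05. IRX4 lies at −5.98 on average, IRX3 at −0.74 and IRX5 at 1.12.

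Levels of different members were compared as CPM per kb of merged exon. In AM the order by median was IRX3 at 17.0, IRX5 at 9.09, IRX2 at 5.59, IRX1 at 1.33, IRX4 at 0.544 and IRX6 at 0.130. IRX3 was above IRX5 in 12 of 12 AM libraries and IRX2 above IRX1 in 12 of 12, but IRX5 exceeded IRX2 in 8 of 12 and IRX4 exceeded IRX6 in 9 of 12. In VM the order was IRX3 at 31.97, IRX4 at 27.7, IRX2 at 7.23, IRX5 at 4.13, IRX1 at 1.93 and IRX6 at 0.186. IRX3 and IRX4 could not be ranked there, since each was the higher in 6 of 12 libraries, and IRX2 was above IRX5 in 11 of 12. The summed level of all 6 was 28.5 to 46.4 CPM per kb in AM (median 34.5) and 48.0 to 124 in VM (median 68.9), with no overlap. The IRXA genes made up 15.2% to 32.1% of that sum in AM (median 20.05%) and 39.6% to 69.4% in VM (median 55.9%). IRX4 itself made up 0.211% to 3.31% in AM and 16.9% to 60.8% in VM, and the IRXB sum overlapped between the protocols, with 20.3 to 38.5 in AM and 21.1 to 43.6 in VM.

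**Figure D3:**
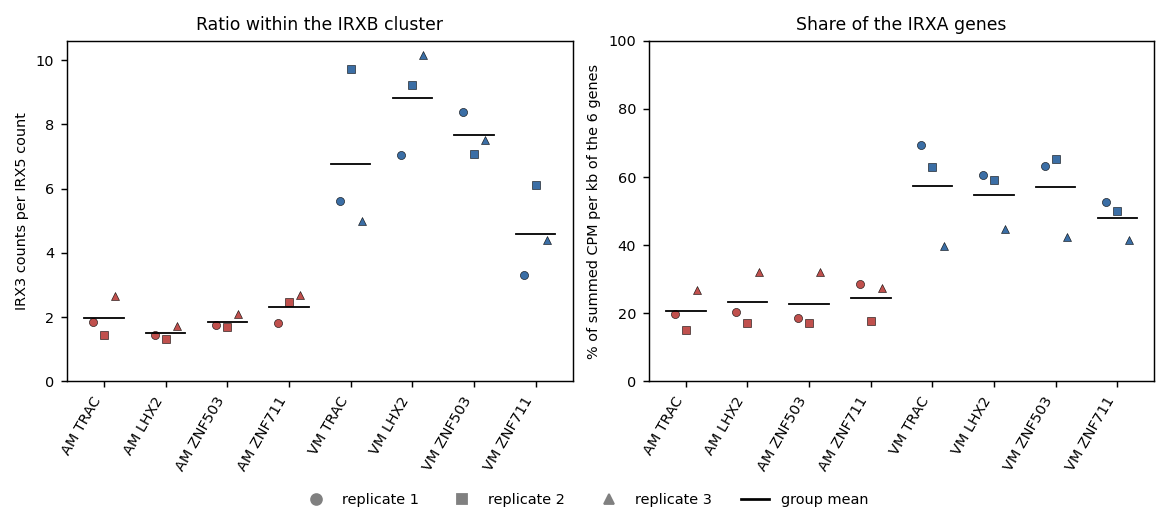
Left, IRX3 counts per IRX5 count in each library (vertical axis), and right, the percentage of the summed CPM per kb of the 6 genes that came from IRX1, IRX2 and IRX4, by group, with a line at the group mean and symbols for the replicate number. Both quantities separate the AM libraries (red, at most 2.70 and 32.1%) from the VM libraries (blue, at least 3.31 and 39.6%).

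Within single targets the same comparison had 3 libraries a side. IRX4 was called lower in AM in each of the 4, with log2 changes of −6.22 (standard error 0.63) in TRAC, −7.13 in LHX2, −6.45 in ZNF503 and −4.11 in ZNF711 (edgeR adjusted p 1.68e-06, 3.08e-06, 1.32e-06 and 2.04e-04). edgeR called 3 members in TRAC (11.3% of all genes), 3 in LHX2 (8.56%), 4 in ZNF503 (8.86%) and 1 in ZNF711 (13.2%). With library size alone the split of all calls was 1082 higher and 560 lower in LHX2, against 830 and 687, and 1136 and 620 in ZNF503, against 845 and 726. In TRAC, IRX3 had 54.1, 51.0 and 45.4 CPM in AM against 51.9, 114 and 87.6 in VM, and IRX5 had 29.3, 35.4 and 17.1 against 9.23, 11.8 and 17.6, so that 1 VM library of each lay among the AM values or above the lowest of them. Their log2 changes were IRX5 at 1.08 (edgeR adjusted p 0.0200) and IRX3 at −0.75 (0.0451). The call of IRX3 in TRAC was lost when any of AM TRAC replicates 1, 2 and 3 or VM TRAC replicates 2 and 3 was left out, at an edgeR adjusted p of 0.0885 to 0.259, and that of IRX5 without any of replicates 1 and 2 of both groups, at 0.0640 to 0.141. In a fit to only the groups compared both calls were lost (0.110 and 0.0920), and IRX3 was also not called with library size alone (0.0540) or a filter of 1 CPM in 3 libraries (0.0560). IRX1 and IRX2 were not called in TRAC (−0.29 and −0.38, edgeR adjusted p 0.769 and 0.476) or LHX2 (−0.01 and −0.32, 0.994 and 0.605). IRX6 had 0.23 in TRAC, −0.08 in LHX2, 1.77 in ZNF503 and −0.14 in ZNF711, each with a standard error above 1 and none called.

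LHX2 and ZNF503 cultures showed IRX3 and IRX5 without overlap between the protocols. The share of all genes without overlap was not counted, here or in any other comparison. Lack of overlap therefore only describes the libraries and does not set the members apart from other genes. In LHX2, IRX3 had 43.4, 59.2 and 39.2 CPM in AM against 67.7, 106 and 99.7 in VM, and IRX5 had 29.9, 44.5 and 22.6 against 9.59, 11.5 and 9.81. The log2 changes were −0.95 for IRX3 (standard error 0.25, edgeR adjusted p 0.0152) and 1.65 for IRX5 (0.000893). Leaving out AM LHX2 replicate 1 or 3 or VM LHX2 replicate 2 or 3 took IRX3 to an edgeR adjusted p of 0.0592 to 0.0840. In ZNF503, IRX3 had 47.9, 69.2 and 39.7 CPM in AM against 98.5, 110 and 102 in VM, and IRX5 had 27.2, 41.2 and 18.9 against 11.7, 15.5 and 13.5. IRX1 also had no overlap there, with 1.65, 2.38 and 2.97 CPM in AM against the VM values given above. On the log2 scale IRX3 had −0.98 (edgeR adjusted p 0.0102), IRX5 1.09 (0.0216) and IRX1 −1.37 (0.0481). Single left-out libraries ended these calls as well: AM ZNF503 replicates 1 and 3 for IRX3 (0.0585 and 0.0702), AM ZNF503 replicate 2 and VM ZNF503 replicates 1 and 3 for IRX5 (0.0627 to 0.203), and AM ZNF503 replicates 1 to 3 and VM ZNF503 replicates 1 and 2 for IRX1 (0.0676 to 0.206). IRX1 in ZNF503 was also not called in 4 settings that kept every library of the groups compared. These included library size alone (edgeR adjusted p 0.0576), no filter (0.264) and a filter of 1 CPM in 3 libraries (0.0694). The last was a fit to only those groups (edgeR adjusted p 0.123). IRX2 had −0.76 in ZNF503 (edgeR adjusted p 0.111), and it was called without VM ZNF503 replicate 3 (−0.97, 0.0462) and without replicate 3 of every group (−1.11, 0.0352).

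In ZNF711 cultures IRX4 alone was called. IRX3 had 37.8, 61.0 and 55.4 CPM in AM ZNF711 against 53.2, 67.7 and 66.2 in VM ZNF711, overlapping, with a log2 change of −0.28 (± 0.25 SE, edgeR adjusted p 0.510). IRX5 had 20.9, 24.6 and 20.6 CPM against 16.1, 11.1 and 15.0, which did not overlap, with 0.65 (standard error 0.31, edgeR adjusted p 0.170). IRX1 had 3.68, 2.21 and 3.12 CPM in AM ZNF711 against 5.44, 6.21 and 8.15, also without overlap, and its change was the larger, at −1.13 (standard error 0.43, edgeR adjusted p 0.0863). IRX2 overlapped, with 17.6, 16.7 and 24.98 CPM against 33.9, 22.8 and 25.1 and a log2 change of −0.46 (edgeR adjusted p 0.324). The ratio of IRX3 to IRX5 counts was 3.31 to 6.10 in VM ZNF711 and 4.98 to 9.72 in VM TRAC, and 1.81 to 2.70 in AM ZNF711. That the step between protocols differs in this target was tested by the interaction with TRAC, which edgeR did not call for any member in any target: 0 of 18 tests, 1 of them at an unadjusted p below 0.05 and 0 by DESeq2, beside 0.00564% of all genes in ZNF711 and 0% in LHX2 and ZNF503. The single one was IRX4 in ZNF711, at 2.11 (standard error 0.98, edgeR adjusted p 0.767), a smaller step from VM to AM than in TRAC. In that interaction 1135 of 17724 genes had an unadjusted p below 0.05. Without filtering the edgeR adjusted p of IRX4 was 0.00109, in a fit that called 209 of 38838 genes, against 1 of 17724 as reported.

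Targeting was then compared with TRAC within each protocol. The 3 comparisons of a protocol share the same TRAC libraries. edgeR called 0 of 36 tests of a member, 4 had an unadjusted p below 0.05, and DESeq2 called 0. Of these 4, 2 were in VM ZNF503, where 274 of 17724 genes had such a p, and 2 in VM ZNF711, where 1666 did. In the other comparisons 309 to 1372 genes and 0 members did. Over all genes edgeR called 0% in 5 of the comparisons and 0.0169% in VM ZNF711. These counts depend on the fit. With the replicate number as a block edgeR called 402 genes in VM ZNF711, 201 in AM LHX2 and 0 to 7 in each of the others. Of the members it then called 1, IRX4 in VM ZNF711. In AM the members other than IRX4 and IRX6 had log2 changes of −0.31 to 0.58, IRX6 of −0.46 to 0.56, and IRX4, at −1.15 to 0.50, rested on 8 to 29 summed counts a group. In VM LHX2 the 6 members had −0.33 to 0.26.

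VM ZNF711 held the largest values against TRAC among members other than IRX6, for IRX4 and IRX1, and neither was called in the reported fit. IRX4 had 39.1, 49.7 and 22.8 CPM in VM ZNF711 against 118, 178 and 46.6 in VM TRAC, beside 147, 176 and 57.2 in VM ZNF503 and 93.4, 132 and 62.4 in VM LHX2. Its highest library lay above VM TRAC replicate 3 and under the rest of the controls. The log2 change against TRAC was −1.62 (± 0.46 SE, edgeR adjusted p 0.238). With the replicate number as a block it was −1.53 (edgeR adjusted p 0.00924), in a fit that called 2.27% of all genes. Without filtering it stayed at −1.62 (edgeR adjusted p 5.56e-11). That fit called 495 of 38838 genes, against 3 of 17724 as reported, so the low value came with a change in many genes. Without VM TRAC replicate 3 the log2 change of IRX4 was −2.01 (edgeR adjusted p 0.0163). IRX4-AS1 was also lower in the libraries, at 2 counts against 57, a ratio of 24.6 (95% exact interval 6.50 to 208, counting error only). Its edgeR adjusted p was 0.209, or 0.0290 with the block, 0.0158 without filtering and 0.0254 without VM TRAC replicate 3.

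All 10 cardiomyocyte genes had a log2 change below 0 in VM ZNF711 against VM TRAC, with a median of −0.71 beside −0.01 over all genes. Of these edgeR called 0, or 1 lower with the replicate block. Their summed level was 11119.9 to 16965 CPM in VM ZNF711 and 14648.6 to 41470.2 in VM TRAC. Per 1000 CPM of these genes IRX4 had 2.05 to 3.27 in VM ZNF711 and 2.85 to 4.87 in VM TRAC, which overlap. The 10 endoderm and liver genes all had values above 0 (12236 to 31126 summed CPM against 3647 to 29203), with a median of 0.82. Among them 0 were called, or 2 higher with the block. Of 5 neural genes 4 were above 0, and PAX6 was called higher (4.19, edgeR adjusted p 0.0352). With the block 2 neural genes were called higher. The part of these shifts in the IRX4 value was not tested.

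IRX1 was the other member with a large value in VM ZNF711, in the upward direction. Its log2 change was 1.42 (± 0.43 SE, edgeR adjusted p 0.275, or 0.0740 with the block), with no overlap of the libraries given above. In VM ZNF503 it was 1.30 (standard error 0.44, edgeR adjusted p 1), again with no overlap. IRX1 counts in VM TRAC were low, at 5, 16 and 20. Against AM TRAC it also lay higher without overlap in AM LHX2 (0.54) and AM ZNF711 (0.58), neither called. IRX2 had 0.61 in VM ZNF503 (standard error 0.29, edgeR adjusted p 1). IRX3 had −0.44 in VM ZNF711 (standard error 0.24, edgeR adjusted p 0.588). IRX5 stayed within −0.33 to 0.11 in the VM comparisons, none of them called.

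**Figure D4:**
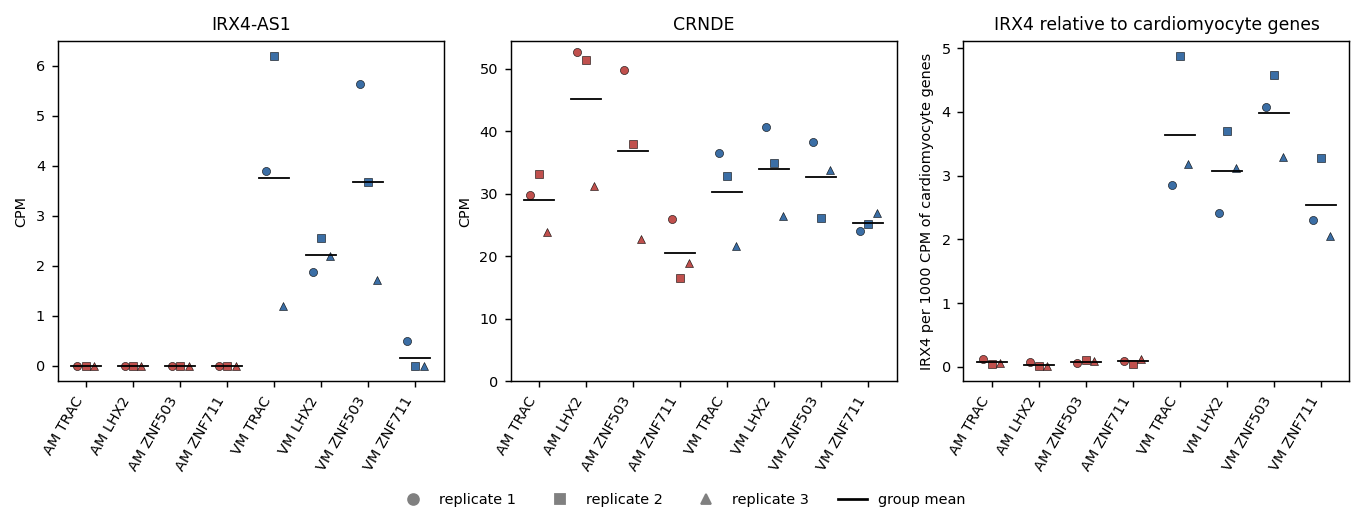
By group, with a line at the group mean: CPM of IRX4-AS1 (left) and CRNDE (middle), and IRX4 CPM per 1000 summed CPM of 10 cardiomyocyte genes (right). IRX4-AS1 is at 0 in all 12 AM libraries (red) and has 2 counts in VM ZNF711, CRNDE overlaps between the protocols, and the IRX4 ratio is 2.05 to 4.87 in VM (blue) and at most 0.130 in AM.

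The replicate number moved with several members. IRX4 was lowest in replicate 3 of all 4 VM groups, at 0.314 to 0.553 of the mean of the other libraries, whereas IRX3 was in the middle in all 4. The 10 cardiomyocyte genes summed to 11119.9 to 20008.8 CPM in the VM replicates 3 and to 15182 to 41470.2 in the others, and the endoderm genes to 10434 to 31126 and 1716 to 21803. In AM it was IRX5 that was lowest in replicate 3 of all 4 groups, at 0.529 to 0.905 of the others, and IRX2 that was highest in all 4, at 1.32 to 1.61. What the number stands for is not given in the labels, and its part in these values was not tested.

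Genes of 1 cluster were correlated within each protocol on log2 CPM, for the 6 pairs with enough counts, over 12 libraries each. No pair passed after adjustment over the 6. The permutations shuffled all 12 libraries freely, although libraries of the same replicate number deviated together. These p-values therefore take no account of target or replicate number. For IRX3 and IRX5 in AM, Pearson's r was 0.631 and Spearman's rho 0.524 (permutation p 0.0292 and 0.0836, adjusted 0.121 and 0.251), and r was 0.470 without the pair of libraries farthest from the median. That r ran from 0.297 without replicate 2 to 0.666 without replicate 1. The same genes in VM had an r of 0.0952 and a rho of 0.175 (permutation p 0.764 and 0.587, adjusted 0.764 and 0.704; r 0.0956 without the farthest). For IRX1 and IRX2, r was 0.598 and rho 0.650 in VM (permutation p 0.0402 and 0.0264, adjusted 0.121 and 0.159; r 0.605 without the farthest) and 0.430 and 0.434 in AM (permutation p 0.160 and 0.162, adjusted 0.258 and 0.325; r 0.635 without the farthest). IRX4 in VM had an r of 0.421 and a rho of 0.336 with IRX2 (permutation p 0.172 and 0.286, adjusted 0.258 and 0.430; r 0.106 without the farthest) and of −0.264 and −0.105 with IRX1 (permutation p 0.413 and 0.749, adjusted 0.495 and 0.749; r 0.138 without the farthest).

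The genes whose log2 CPM was most like each member over the 24 libraries were listed as a description. All points share the 2 protocols, and with them the cell makeup. IRX4 was most like COL22A1 (r 0.980), KCNQ5 (0.977) and GADL1 (0.972). With the protocol mean taken out of each library it was most like genes of the contractile apparatus, OBSL1 (0.912), TPM1 (0.862) and SPEG (0.846). IRX3 was most like LGMN (0.914), CYP27A1 (0.912) and NEURL1B (0.893), and IRX5 like NOVA2 (0.921), RAB3C (0.915) and PLAT (0.914). NOVA2 and RAB3C stayed among the closest 3 to IRX5 without the protocol mean (0.736 and 0.721), behind SH2B3 (0.749), while those of IRX3 became ST3GAL2 (0.881), CTDSP2 (0.830) and MGAT3 (0.825). IRX2 was most like LYN, a Src family kinase (0.839), SALL3 (0.818) and LINC01844 (0.787), and without the protocol mean like LYN (0.755), BMP10 (0.724) and SALL3 (0.720). IRX1 was most like DNAJC1 (0.776), GINS1 (0.731) and TPX2 (0.709), and without the protocol mean like MB21D2 (0.776), KCNJ2 (0.712) and DMRT3 (0.699). IRX6, at its low counts, was most like CASC3 (0.663), ANGPTL2 (0.626) and CAPN5 (0.625), and without the protocol mean like SLC43A1 (0.729), CASC3 (0.704) and LOXL1-AS1 (0.656).

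Lists of related genes were read in the same averaged comparison of AM with VM. There edgeR called 34.5% of all genes, 16.8% higher in AM and 17.6% lower, the share to set beside every list below. MEIS proteins, of the TALE class, are cofactors of many homeodomain factors. Of the other TALE homeobox genes edgeR called 8 of 11 higher in AM and 0 lower, with a median log2 change of 0.27. With the replicate number as a block 9 were called higher and 1 lower. Among those called were MEIS3 (1.26), MEIS2 (1.19) and PKNOX1 (0.65), with edgeR adjusted p of 1.04e-10, 8.59e-10 and 1.94e-06. Of 7 other genes in and beside the IRXA region 0 were called higher and 3 lower (median −0.47), or 1 and 3 with the block. The 3 of the reported fit were MRPL36, NDUFS6 and IRX4-AS1, which cannot be told apart from unspliced IRX4 reads. MRPL36, a mitochondrial ribosomal protein gene, had −1.005 (edgeR adjusted p 0.000152). NDUFS6, a subunit of respiratory complex I, had −0.47 (edgeR adjusted p 0.00109, lost without replicate 2). Beside IRXB, 1 of 8 was called, MMP2, a matrix protease (0.56, edgeR adjusted p 0.00512, lost without replicate 1 or 2). FTO, whose introns hold enhancers of the cluster, had −0.04 (edgeR adjusted p 0.714).

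Genes reported elsewhere as regulated by Iroquois factors went in both directions, 5 of 8 called higher and 2 lower in AM (median 0.80). With the replicate block these counts were 5 and 3. KCNIP2, the potassium channel subunit under the ventricular repolarisation gradient, had 1.79 (edgeR adjusted p 6.47e-08), and CXCL12, a chemokine, 1.498 (9.31e-07). GJA1, a connexin, had −1.25 (1.48e-06), and KCND3, a potassium channel, −2.04 (2.04e-04). Among 11 cardiac factors of chamber identity, 6 were called higher in AM and 4 lower, with NR2F2 at 3.45, GATA6 at 1.41 and TBX5 at 1.26, and with HEY2, a ventricular repressor, at −3.57 beside IRX4 (edgeR adjusted p 7.10e-10 or lower in each). Of 8 genes of the retinoic acid response 3 were called higher and 1 lower, among them CRABP2, a retinoic acid binding protein, at 0.98 (edgeR adjusted p 6.82e-06) and CYP26A1, a retinoic acid breakdown enzyme, at −4.99 (1.21e-05).

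Marker lists of cell types showed how the protocols differed beside the members. Atrial genes were called higher in AM in 7 of 8 and lower in 0, or in 7 and 1 with the replicate block. Their summed levels were 898 to 1145 CPM in AM and 140.1 to 213 in VM. Ventricular genes other than IRX4 were called lower in 7 of 7, with 269 to 825 CPM in AM and 878 to 2222 in VM. Cardiomyocyte genes were called lower in 6 of 10, or in 5 with the block, MYH7 being in both lists. Counts called higher and lower in AM were 5 and 1 of 8 endothelial genes, 3 and 0 of 7 fibroblast genes, 3 and 1 of 6 epicardial genes, 2 and 1 of 4 smooth muscle genes, 1 and 6 of 10 endoderm and liver genes, 2 and 0 of 5 neural genes, and 0 and 2 of 2 pluripotency genes. Of the 7 ventricular genes only MYL2 had a larger fitted change than IRX4, at −6.88 (edgeR adjusted p 4.93e-08), from levels of 0 to 0.181 CPM in AM and 0.615 to 9.21 in VM. The part of cell makeup in the values of the Iroquois genes was not tested.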

How the data were processed

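The authors deposited 1 table of whole-number read counts per gene, without normalization, with a column for each of the 24 libraries. Reads were aligned with STAR to GRCh38, per the submitters' processing notes. The counting program, its use of strand, versions and the annotation release are not given in the sources used here, and the labels conflict on RNA selection (polyA RNA in one place, ribosomal RNA depletion by a KAPA kit in another). Symbols came from a table of Ensembl identifiers (62686 of 62757 rows matched). The unmatched columns numbered 0. Genes kept by filterByExpr (17724) were tested with edgeR 4.0.16 (R 4.3.3), by robust quasi-likelihood fits with TMM scaling and 1 mean per group over all 24 libraries, for 14 comparisons, each adjusted by Benjamini-Hochberg over all genes and called below 0.05. Standard errors are the log2 fold change (size) divided by the root of F. CPM use TMM-scaled library sizes, and log2 CPM a prior count of 2. CPM per kb use merged exon lengths of GENCODE 29. Correlation p-values are two-sided, from 100000 permutations.

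edgeR estimated the variation between libraries (BCV) at 25.0%, and at 16.9% under the replicate block. Same-numbered libraries deviated together from their group means, with r of 0.125 to 0.786 over 11428 genes in the 10 pairs of groups compared, which meets the criterion used here for paired numbers (r above 0.1 in every pair). All reported values are nevertheless from the fit without a block. Values with the block stand beside those of members and IRX4-AS1 whose call it changed. For gene lists, counts with the block are given where they differed. The fit was checked on simulated counts with the same variation for all genes and no effect of the replicate number. That check therefore cannot speak to libraries that deviate together. Alternatives were scaling by relative log expression, library size alone, no filter, DESeq2 1.42.0, the replicate block, a filter of 1 CPM in 3 libraries, a fit to only the groups compared, and leaving out each library or replicate number. The members and the 16 gene lists were chosen with earlier results of these data known. The naming rule covered the 6 members in every comparison, given singly or, where none was called, as a range, the 3 genes most like each by both measures, and at most 4 called genes per list by lowest p; some called genes of the lists are not reported here. FTO, MYL2 and PAX6 were named after their values were seen. RefSeq promoter sequences are of GRCh38.p14. Intervals and limits cover counting error only.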

Additional observations from a re-analysis of the deposited data

How the results depend on the processing

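Of the 6 members, 5 were called in AM against VM on average, and 4 to 5 in the other settings with all libraries. With a library or replicate number left out 3 to 5 were called, the 3 without replicate 2 in all groups, where IRX1 and IRX2 lost their calls. Within TRAC only 1 was called when the fit held only the groups compared, and 1 to 2 with libraries left out. IRX3 within TRAC lost its call in 3 of 7 settings that kept every library of the groups compared, and IRX1 within ZNF503 in 4 of 7. Within ZNF503 the left-out fits called 2 to 4. In VM ZNF711 against TRAC, 0 members were called as reported, 1 with the replicate block, 1 without filtering and 0 to 1 with libraries left out. Without filtering 1 was called in the ZNF711 interaction, against 0. The block changed no other call of a member, and the cause of these changes was not tested. IRX3, IRX4 and IRX5 kept their direction and call on average under all 6 settings and all 27 left-out fits. Values near 0 changed sign: IRX1 within LHX2 was −0.01, but 0.085 with library size alone and −0.066 to 0.065 over its left-out fits. IRX2 ran from −0.62 to 0.052 within TRAC and from −0.67 to 0.0030 within LHX2 over left-out fits, above 0 only without replicate 2. IRX6 on average ran from −0.49 without replicate 1 to 1.21 without replicate 3. CRNDE on average ran from −0.016 without AM ZNF503 replicate 1 to 0.14 without replicate 3. Correlations that changed sign were VM IRX1 with IRX4 (r 0.138 without the pair of libraries farthest from the median), VM IRX2 with IRX4 (−0.138 to 0.767 over left-out fits) and VM IRX3 with IRX5 (−0.0418 with library size alone, −0.137 to 0.219 over left-out fits). At 2899786 to 7438010 counts a library, differences of IRX6 and of IRX4 among AM groups were not detectable.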
